A study of Mus musculus with 12 samples.

Results

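The 37 genes that the mouse mitochondrial genome encodes were followed in RNA sequencing of spinal cord tissue, out of 46078 genes in the deposited count table. They were taken as every gene whose symbol begins with mt-, with symbols assigned from Ensembl identifiers, and comprise 13 protein genes, 2 ribosomal RNA (rRNA) genes and 22 transfer RNA (tRNA) genes. The study holds 12 libraries in 4 groups of 3, all from hosts of the strain C57BL6/cJ. The groups are non-injured cord, spinal cord injury (SCI), SCI with transplanted syngeneic mesenchymal stem cells (MSC, from a genetically matched donor) and SCI with transplanted allogeneic MSC (from an unmatched donor). The labels give no control operation for the non-injured cord and no vehicle for SCI alone. The sources used here do not give the time after injury, the MSC donor strain and tissue, the dose of cells, or the sex and age of the mice. Nothing in the labels states that samples of 1 group came from different mice, so p-values measure the spread between these samples, which may partly be technical. In bulk tissue, fewer cells of a type and less RNA per cell cannot be told apart.

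Mitochondria keep a small circular genome of their own, which a dedicated RNA polymerase (Polrmt) with the factors Tfam and Tfb2m transcribes from both strands as long precursors. Most genes lie on the strand written here as plus, and tRNAs sit between many protein and rRNA genes, so that cutting the tRNAs out of the precursor releases the messenger and ribosomal RNAs. The proteins are core subunits of respiratory complexes I, III and IV and of the ATP synthase (complex V), which nuclear genes complete. Neurons and their long axons depend heavily on this machinery for ATP.

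In the annotation (GENCODE M21, genome build GRCm38), 28 of the members lie on the plus strand and 9 on the minus strand, which holds mt-Nd6 and 8 tRNAs. The tRNA joints can be read in the sequence, shown here for the 2 tRNAs with the highest counts. The gene mt-Tl1 (leucine tRNA) joins the end of mt-Rnr2 to the start of mt-Nd1 without a gap, and mt-Tw (tryptophan tRNA) follows mt-Nd2. The capitals mark the tRNA and the lower case the neighbouring 20 bases, at chrM:2656-2770 and chrM:4930-5016 on the plus strand.
mt-Tl1: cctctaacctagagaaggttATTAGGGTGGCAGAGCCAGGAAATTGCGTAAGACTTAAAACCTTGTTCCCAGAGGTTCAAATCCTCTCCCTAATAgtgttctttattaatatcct
mt-Tw: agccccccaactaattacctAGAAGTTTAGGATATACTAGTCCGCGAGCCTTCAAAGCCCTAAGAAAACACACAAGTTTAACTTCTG

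Chromosome 1 holds a near-identical copy of part of the mitochondrial genome, so some members share their sequence with a nuclear locus. The copy runs over chr1:24611535-24616197 on the minus strand and matches mitochondrial positions 6390 to 11042 in the same order. It carries 7 annotated copies (Gm29216, Gm28661, Gm10925, Gm28437, Gm28438, Gm10222 and Gm28439), which differ from the mitochondrial genes at 2 of 4140 aligned bases. The protein genes mt-Co2, mt-Atp8, mt-Atp6, mt-Co3, mt-Nd3 and mt-Nd4l and 5 tRNA genes lie wholly inside it, mt-Nd4 by 63.6% of its length and mt-Co1 by 31.3%. Less similar copies lie elsewhere. On chromosome 2, Gm13340 covers all of mt-Co1 (97.6% identity, 44 to 213 counts in a library) and Gm13341 all of mt-Co2 (95.9%, 20 to 74 counts). Gm13339, also there, covers 49.1% of mt-Nd2 (96.7%, 2 to 12 counts). The copy of mt-Nd3, Gm28438, differs from it by a single base, the third of 345 aligned, shown in capitals at chrM:9459-9521 (plus strand) and chr1:24613057-24613119 (minus strand).
mt-Nd3: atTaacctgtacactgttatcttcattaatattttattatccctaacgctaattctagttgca
Gm28438: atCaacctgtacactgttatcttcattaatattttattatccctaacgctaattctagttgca

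The levels of the members per length differed along this map, as the plot of levels in map order shows. In non-injured cord, mt-Co1, a catalytic subunit of complex IV, stood highest at 19592 ± 5964 CPM per kb (SD, n = 3; CPM are counts per 1000000 of the library's TMM-adjusted total). It was followed by mt-Cytb (complex III) at 14260.4 ± 4722 CPM per kb and by the complex I genes mt-Nd1 at 12231 ± 2858 and mt-Nd2 at 8893 ± 2615 CPM per kb. Each non-injured library gave this same order, while the ranges of the 3 libraries overlapped between each of these genes and the next. The complex I genes mt-Nd5 and mt-Nd4 and the rRNA genes mt-Rnr2 and mt-Rnr1 lay between 3607 and 4965 CPM per kb on average, and their ranges overlapped too. Divided by the bases outside the copied stretch alone, mt-Nd4 came to 12512 ± 3747 CPM per kb. The RNA was selected by its poly(A) tail before sequencing, so the rRNA and tRNA values are levels within that selection.

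The 6 protein genes wholly inside the copied stretch stood orders of magnitude below their neighbours. In non-injured cord mt-Co2, mt-Atp8, mt-Atp6, mt-Co3 and mt-Nd4l held 1.96 to 4.55 CPM per kb on average, and mt-Nd3 held 46.7 ± 9.43 CPM per kb. Across the 12 libraries these 6 genes had at most 465 counts each and together 4870 of 13973698 counts of protein genes, or 0.0349%. The lowest of the other 7 protein genes was mt-Nd6, the only protein gene of the minus strand, with 584 to 4060 counts. Reads that match both genomes cannot be told apart by their letters. The sources used here do not state how the deposited counting treated reads with several matches, and its part in these low values was not tested, so the values of these 6 genes are uncertain throughout.

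**Figure D1:**
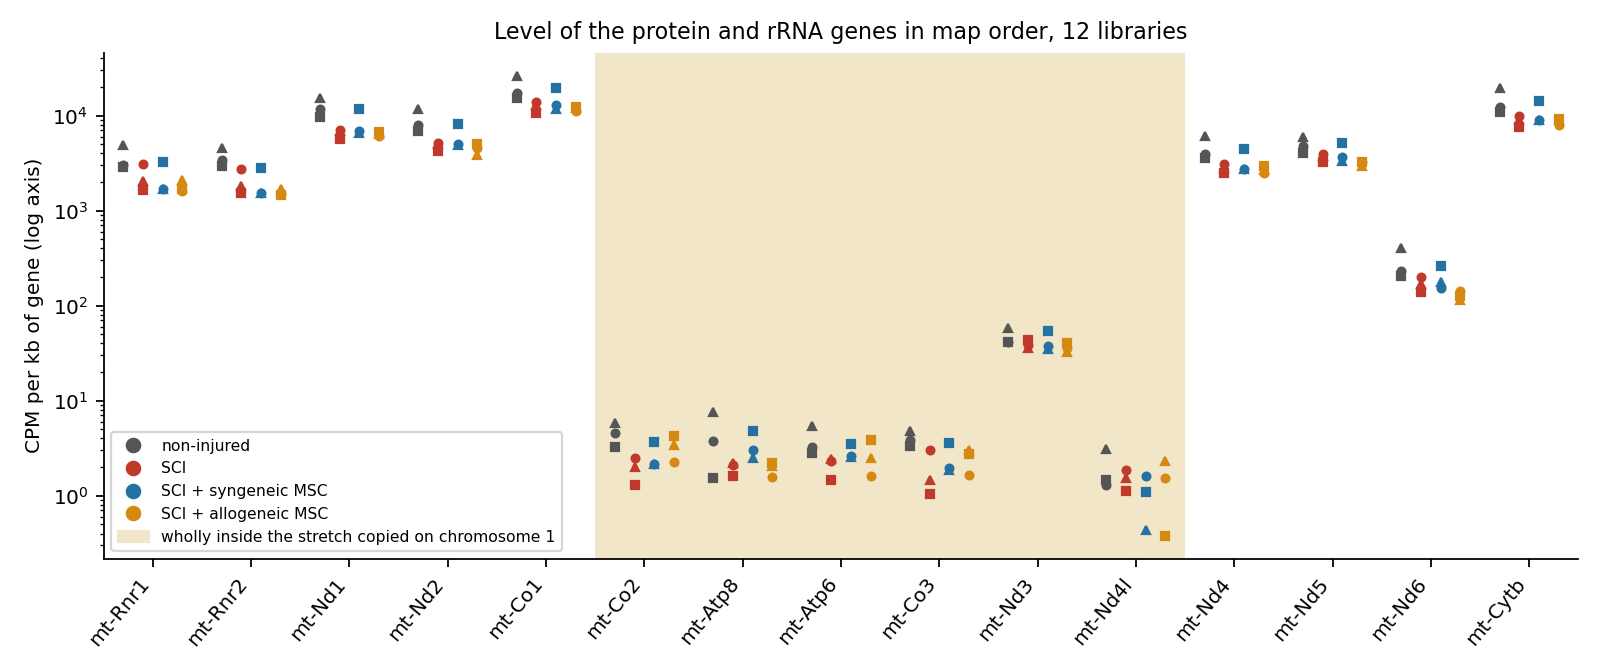
Level of the 13 protein and 2 rRNA genes, in CPM per kb of gene on a log axis, in each of 12 libraries; circle, square and triangle are replicates 1, 2 and 3 of a group. The 6 genes on the shaded ground lie wholly inside the stretch copied on chromosome 1 and stand between 0.38 and 57.6 CPM per kb, while the other genes stand between 116 and 26378 CPM per kb.

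Few tRNA counts were recorded. Of the 22 tRNA genes, 8 passed the filter on low counts (mt-Tl1, mt-Ti, mt-Tq, mt-Tm, mt-Tw, mt-Te, mt-Tt and mt-Tp) with 0 to 796 counts in a library. The other 14 tRNA genes had at most 19 counts in any library, and 5 of them (mt-Tf, mt-Td, mt-Tk, mt-Th and mt-Ts2) had none in all 12. With mt-Nd4l, 15 members fell below the filter, and 22 members were tested among 16527 genes: 12 protein, 2 rRNA and 8 tRNA genes. Several tRNA genes share bases with a neighbour on the same strand (mt-Ti with mt-Nd1, mt-Tw with mt-Nd2, 2 bases each) or on the other (mt-Tq with mt-Ti, 3 bases). The sources do not state the strand setting of the counting either, so reads of the 9 minus-strand members and of RNA from the opposite strand cannot be told apart.

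The libraries held 8705942 to 26151928 counts. Non-injured replicate 3 stood apart with the smallest TMM factor, 0.895, and a summed level of 9 oligodendrocyte markers of 80239 CPM, against 33311 to 41858 CPM in the other non-injured libraries. It also had the largest mitochondrial share, and syngeneic replicate 2 had the largest share among the injured libraries. Counts of members called, and the values these libraries moved most, are given with and without them.

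Mitochondrial genes took up a smaller share of all counts after injury. The share was 8.18%, 7.46% and 10.9% in the non-injured libraries (8.85% ± 1.81, SD, n = 3) and 6.40%, 5.0% and 5.87% in SCI (5.75% ± 0.707). With syngeneic MSC it was 5.61%, 8.80% and 5.42% (6.61% ± 1.90), and with allogeneic MSC 5.14%, 5.62% and 5.38% (5.38% ± 0.240). No SCI or allogeneic library reached the lowest non-injured value, whereas syngeneic replicate 2 lay among the non-injured libraries and the other 2 syngeneic libraries within the range of SCI. The widest 95% Wilson interval was ± 0.0153 percentage points and covers counting error only. Relative to unscaled library totals, the tRNA genes stood at 51.4 to 59.4 CPM in non-injured cord, 27.2 to 30.2 in SCI, 26.2 to 44.6 with syngeneic MSC and 17.1 to 27.9 with allogeneic MSC, with no overlap between non-injured cord and the other groups.

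**Figure D2:**
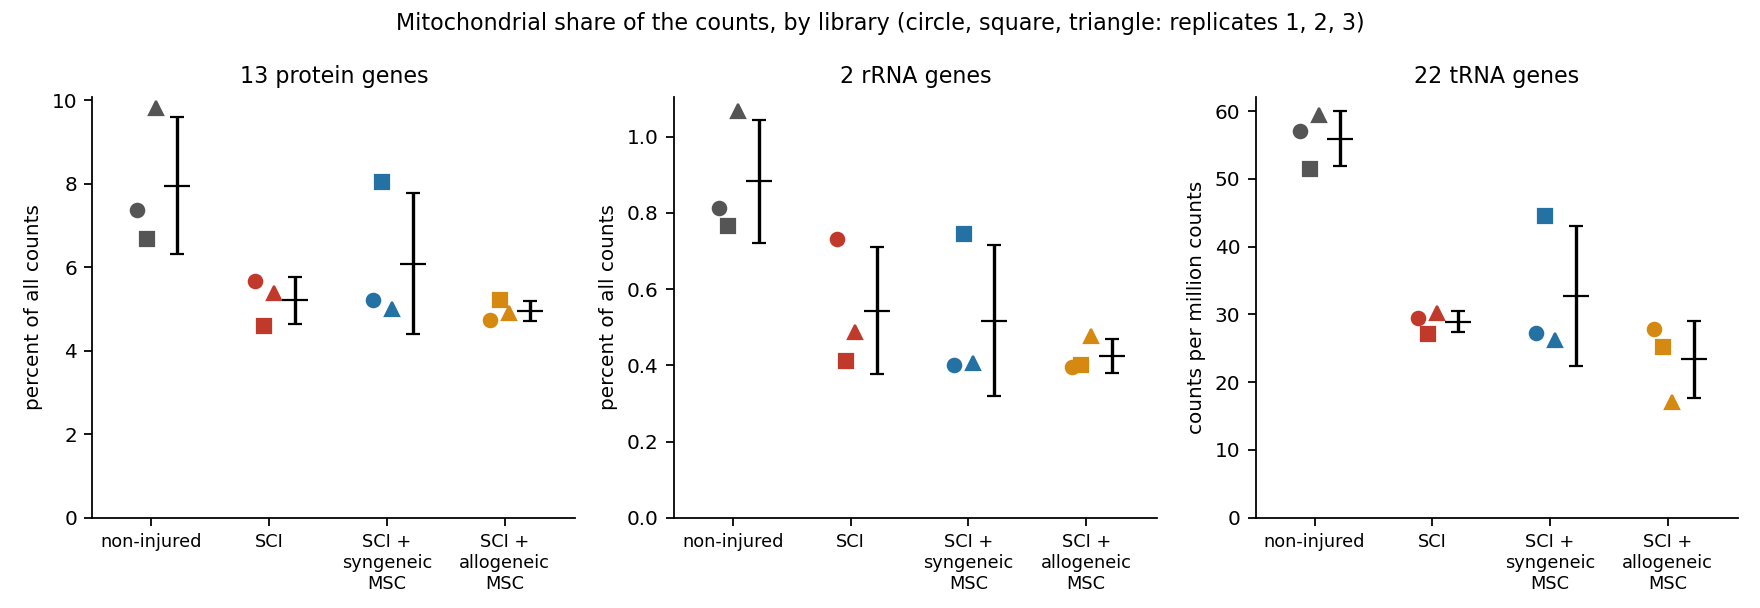
Share of all counts in each library taken by the protein and rRNA genes (percent) and by the tRNA genes (CPM of unscaled totals), with the group mean and SD (n = 3). Non-injured libraries stand above SCI and allogeneic libraries in each panel; syngeneic replicate 2 (square) is the highest of the injured libraries for protein, rRNA and tRNA genes.

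After injury, 9 of the 22 members tested fell and none rose against non-injured cord (edgeR quasi-likelihood test, adjusted p below 0.05 over all 16527 genes), where 9.26% of all genes were called lower and 16.6% higher. The genes that fell were mt-Nd1, mt-Nd2, mt-Nd4, mt-Co2, mt-Rnr2, mt-Tl1, mt-Ti, mt-Tw and mt-Tp. The median log2 fold change of the 22 was -0.85, against 0.0082 over all genes, and each of the 22 had a negative value. All SCI libraries lay below all non-injured libraries for 18 of the 22, against 21.2% of all genes.

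Among the complex I genes, mt-Nd1 held 11177, 9272 and 14666 CPM in non-injured cord and 6795, 5451 and 6596 CPM in SCI. It fell by 0.90 on the log2 scale (SE 0.24, edgeR adjusted p = 0.019), and its groups did not overlap. The level of mt-Nd2 was 8290.4, 7112 and 12291 CPM in non-injured cord and 5391, 4452 and 5218 CPM in SCI, and it fell by 0.88 (SE 0.24, adjusted p = 0.023). The level of mt-Nd4 was 5468, 4944 and 8432 CPM against 4268, 3416 and 3907 CPM, and it fell by 0.70 (SE 0.24, adjusted p = 0.049). For both genes the groups did not overlap. The last complex I gene on the plus strand, mt-Nd5, held 8753, 7453 and 10959.9 CPM in non-injured cord and 7160, 5889.7 and 6782 CPM in SCI, a log2 fold change of -0.45 (SE 0.19, adjusted p = 0.11). Its groups did not overlap either, although the test did not call it. On the minus strand mt-Nd6 held 121, 107 and 208 CPM against 103, 72.0 and 86.9 CPM, at -0.74 (SE 0.26, adjusted p = 0.054). The copied mt-Nd3 overlapped between the groups, at -0.25 (SE 0.19, adjusted p = 0.37).

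The most abundant members were not called, although their groups did not overlap. The level of mt-Co1 was 26593, 23460.3 and 40755 CPM in non-injured cord and 21398, 16631 and 19878 CPM in SCI, a log2 fold change of -0.65 (SE 0.25, adjusted p = 0.074). The level of mt-Cytb was 14023, 12435 and 22484 CPM against 11452, 8746 and 10372 CPM, at -0.68 (SE 0.25, adjusted p = 0.067). For both genes non-injured replicate 3 stood far above the other 2 non-injured libraries. The copied genes of complexes IV and V rest on few counts. Of them mt-Co2, with 3.09, 2.25 and 4.0 CPM in non-injured cord and 1.72, 0.879 and 1.36 CPM in SCI, fell by 1.25 (SE 0.35, adjusted p = 0.023). The others had values of -1.13 (mt-Co3), -1.12 (mt-Atp8) and -0.89 (mt-Atp6) with adjusted p of 0.057, 0.12 and 0.083.

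Of the rRNA genes, mt-Rnr2 (large mitochondrial ribosomal subunit) held 5367, 4679 and 7211 CPM in non-injured cord and 4358, 2445 and 2865 CPM in SCI and fell by 0.84 (SE 0.28, adjusted p = 0.048). SCI replicate 1 was the highest of its group, as it was for mt-Rnr1 (small subunit), whose groups overlapped at -0.68 (SE 0.32, adjusted p = 0.14). Of the 8 tRNA genes tested 4 fell. The level of mt-Tl1 was 10.5, 9.37 and 9.74 CPM in non-injured cord and 4.04, 3.40 and 4.82 CPM in SCI, and it fell by 1.27 (SE 0.30, adjusted p = 0.011). The level of mt-Tw was 30.8, 22.8 and 30.7 CPM against 13.7, 13 and 14.3 CPM, and it fell by 1.04 (SE 0.24, adjusted p = 0.0096). The proline tRNA mt-Tp, on the minus strand, held 3.48, 4.37 and 5.23 CPM against 1.47, 2.03 and 1.98 CPM and fell by 1.24 (SE 0.29, adjusted p = 0.011). The isoleucine tRNA mt-Ti fell by 0.76 (SE 0.24, adjusted p = 0.034), while mt-Tq, mt-Tt and mt-Tm had values of -1.30, -0.86 and -0.79 with adjusted p of 0.057, 0.076 and 0.082. The groups overlapped for mt-Te (glutamate tRNA), at -0.14 (SE 0.49, adjusted p = 0.86).

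The number of members called depended on single libraries, as did the share of all genes called lower, which is given beside it. It was 2 without SCI replicate 2 (2.75% of all genes), 3 without SCI replicate 3 (3.68%), 5 without non-injured replicate 1 (5.19%) and 3 without non-injured replicate 3 (7.84%), against 9 and 9.26% with all libraries. DESeq2 called 14 members lower, with 6.63% of all genes. It covered 28448 genes in place of 16527, and counted all members with counts, not only those that passed the filter. Of all genes it called 1887 lower in place of 1530, a larger number but a smaller share than the 9.26% of the main test. Without non-injured replicate 3 the median of the members was -0.59 in place of -0.85. The values then were -0.45 for mt-Nd4 (adjusted p = 0.16), -0.39 for each of mt-Co1, mt-Cytb and mt-Rnr1, -0.40 for mt-Nd6, -0.86 for mt-Tq, -0.41 for mt-Tt and -0.087 for mt-Nd3. The calls of mt-Tw and mt-Tp held in all 12 alternatives tried. The value of mt-Atp8 was -0.51 without non-injured replicate 3, against -1.12 with it.

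Cell type markers differed between SCI and non-injured cord as well, where 9.26% of all genes were called lower and 16.6% higher. The summed level of 10 neuron markers was 13912 to 15901 CPM in non-injured cord and 8068 to 9917 CPM in SCI, with 7 of the 10 called lower, and 5 of 9 oligodendrocyte markers were called lower (33311 to 80239 against 24610.4 to 33593 CPM). All 10 microglia and macrophage markers were called higher (264 to 374 against 2415 to 3033 CPM), as were all 6 fibroblast markers (101 to 219 against 1057 to 1576 CPM) and 5 of 7 astrocyte markers (5351 to 7579 against 12554 to 14186 CPM). Of the other lists, 5 of 6 neutrophil, 5 of 6 T cell and 2 of 5 ependyma markers were called higher. Of 6 markers of mesenchymal stromal cells 2 were called higher and 1 lower. None was called for endothelium, red blood cells or skeletal muscle. No marker in these lists was at 0 in all libraries. The part of cell makeup in the mitochondrial values was not tested.

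**Figure D3:**
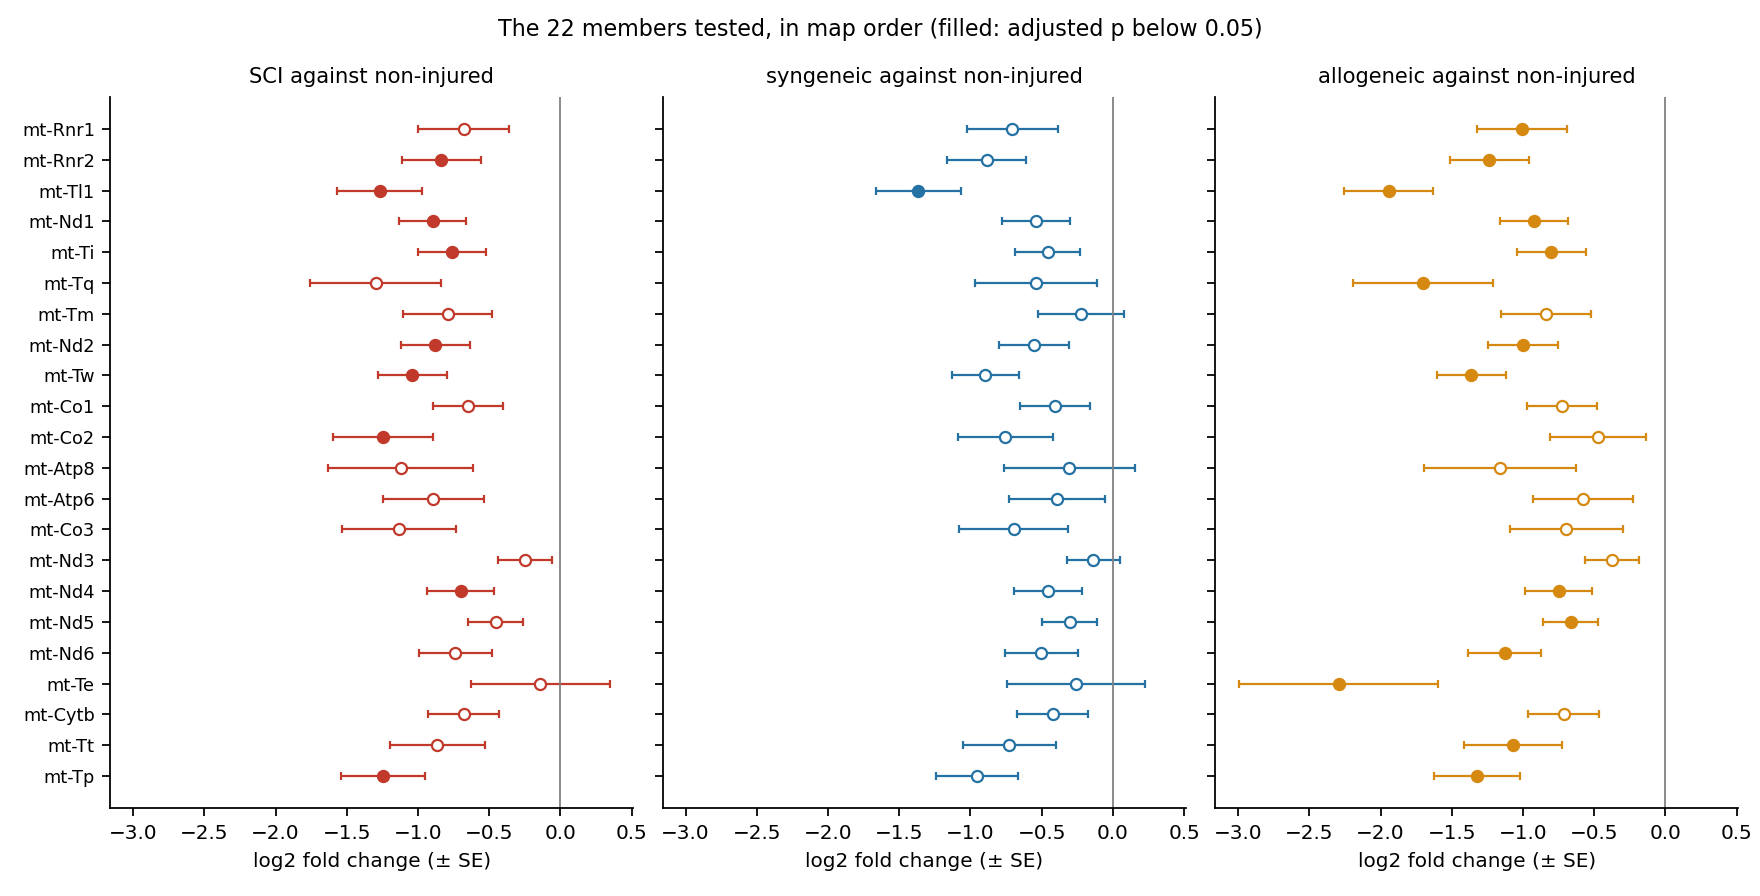
Log2 fold change (± SE) of the 22 members tested, in map order from top to bottom, in each injured group against non-injured cord; filled points passed adjusted p below 0.05. The members lie to the left of 0 in each panel, with 9 filled in SCI, 1 with syngeneic MSC and 14 with allogeneic MSC; the panels share the same 3 non-injured libraries.

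Within the mitochondrial RNA of a library, the genes did not keep the same proportions after injury. These ratios of counts, which do not depend on the scaling between libraries, were chosen after their values were seen and are given as a description. Counts of mt-Nd1 per count of mt-Nd5 were 1.28, 1.24 and 1.34 in non-injured cord and 0.949, 0.925 and 0.973 in SCI. They were 0.993, 1.22 and 1.03 with syngeneic MSC and 1.01, 1.09 and 1.15 with allogeneic MSC. All injured libraries lay below the non-injured ones, and all libraries with MSC lay above those of SCI alone. The ratio of mt-Nd2 to mt-Nd5 was 0.947, 0.954 and 1.12 in non-injured cord and 0.753, 0.756 and 0.769 in SCI. With syngeneic MSC it was 0.788, 0.917 and 0.841, between the other groups, and with allogeneic MSC 0.806, 0.871 and 0.742, overlapping SCI. The ratios of mt-Co1, mt-Cytb and mt-Nd4 to mt-Nd5 were also lower in all SCI libraries than in the non-injured ones, by narrower margins (mt-Co1: 2.82 to 2.99 against 3.04 to 3.72). In these ratios both MSC groups overlapped SCI as well as non-injured cord. The ratios to mt-Nd5 are not separate results, since mt-Nd5 itself took a larger share of mitochondrial counts in SCI (11.7% against 9.96%). As shares of mitochondrial counts, mt-Cytb (17.5% in non-injured cord, 18.0% in SCI) and mt-Nd4 (6.79% and 6.82%) overlapped between these groups. The share of mt-Co1 was higher in SCI. Apart from mt-Nd1 over mt-Nd5, no ratio looked at had both MSC groups above SCI. Both lay below SCI in mt-Tl1 over mt-Nd1, given below, and in mt-Rnr2 over mt-Nd1. The latter was 0.364 to 0.396 with syngeneic MSC, 0.357 to 0.429 with allogeneic MSC and 0.434 to 0.641 in SCI. How often ratios of other genes separate the groups was not tested.

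As shares of mitochondrial counts, mt-Nd1 went from 12.8% ± 0.737 in non-injured cord (SD, n = 3) to 11.1% ± 0.412 in SCI and mt-Nd5 from 9.96% ± 0.848 to 11.7% ± 0.451, with no overlap in either case. The share of mt-Co1 was 32.7% ± 0.681 and 34.0% ± 0.504, also without overlap. The rRNA genes had 0.109 to 0.115 counts per count of a protein gene in non-injured cord, 0.0897 to 0.129 in SCI, 0.0768 to 0.0925 with syngeneic MSC and 0.0765 to 0.0970 with allogeneic MSC. Both MSC groups thus lay below non-injured cord in this ratio, while SCI spanned it through its replicate 1. Per 1000 counts of mt-Nd1, the tRNA next to it on the precursor, mt-Tl1, had 0.664 to 1.01 counts in non-injured cord, 0.595 to 0.731 in SCI, 0.383 to 0.544 with syngeneic MSC and 0.254 to 0.583 with allogeneic MSC. In all 12 libraries, mt-Co1, mt-Cytb, mt-Nd1, mt-Nd5, mt-Nd2, mt-Nd4 and the 2 rRNA genes made up 99.7% to 99.8% of mitochondrial counts.

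**Figure D4:**
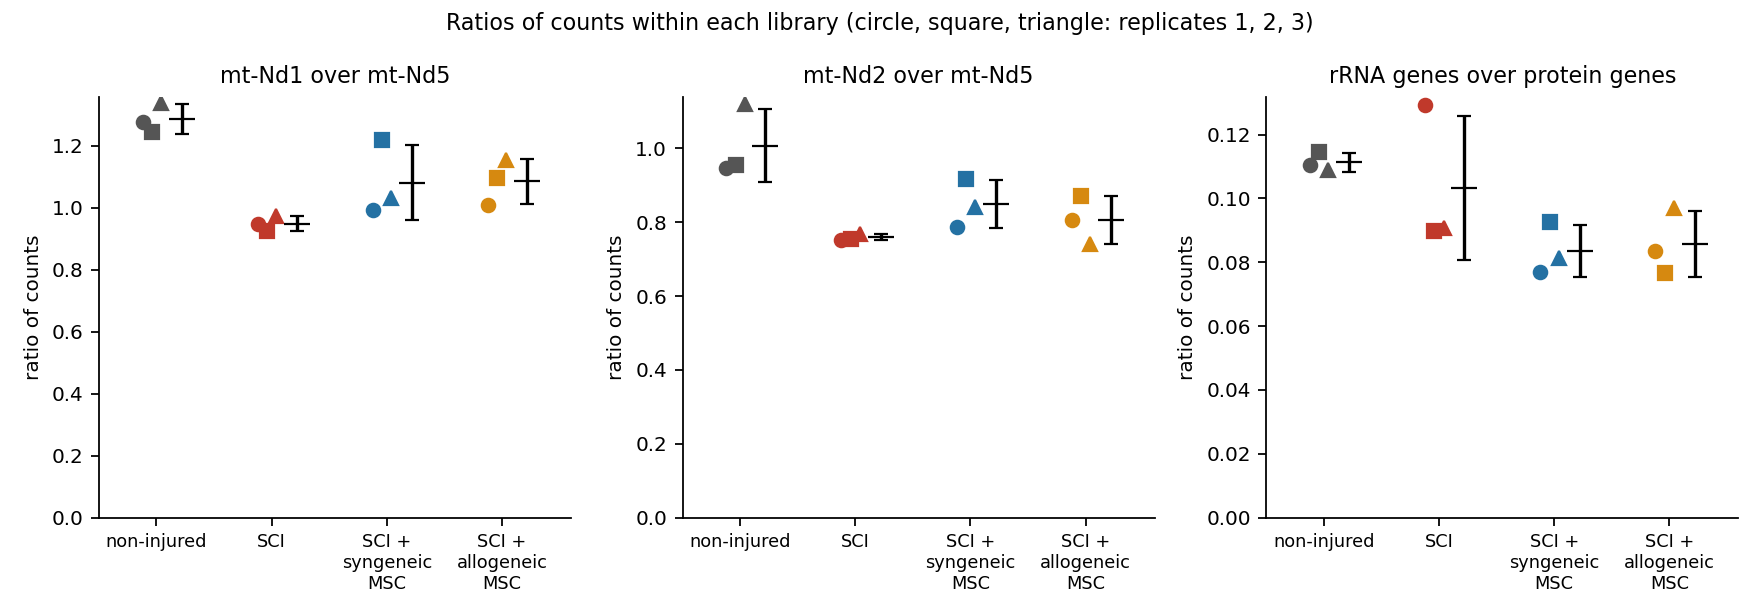
Ratios of counts within each library, for mt-Nd1 and mt-Nd2 over mt-Nd5 and for the 2 rRNA genes over the 13 protein genes, with the group mean and SD (n = 3). For mt-Nd1 over mt-Nd5, non-injured libraries stand at 1.24 to 1.34, SCI at 0.925 to 0.973 and the libraries with MSC in between.

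With allogeneic MSC, 14 of the 22 members were lower than in non-injured cord and none higher, where 8.17% of all genes were called lower. Over all genes 2762 were called higher and 1350 lower, and with library totals as the only scaling 3170 and 924. The median of the members was -0.96, against -0.011 over all genes, and all allogeneic libraries lay below the non-injured ones for 19 of the 22 (15.9% of all genes). Besides 8 of the 9 members called in SCI, the list held mt-Rnr1, mt-Nd5, mt-Nd6, mt-Tq, mt-Te and mt-Tt. The 2 comparisons share the non-injured libraries. The level of mt-Nd1 was 5895, 6503 and 6165 CPM (log2 fold change -0.92, SE 0.24, adjusted p = 0.016), beside -0.90 in SCI. The level of mt-Rnr2 was 2361, 2323 and 2645 CPM, at -1.24 (SE 0.28, adjusted p = 0.0087) beside -0.84. The tRNA mt-Tl1 held 3.44, 2.82 and 1.57 CPM, at -1.94 (SE 0.32, adjusted p = 0.0012) beside -1.27.

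All 4 minus-strand members tested were called with allogeneic MSC, against 1 of 4 in SCI. Of the plus-strand members 10 of 18 were called, against 8 of 18 in SCI. The shares of all genes called lower were 8.17% and 9.26%. In SCI, mt-Nd6 and mt-Tq lay just above the threshold, and allogeneic MSC against SCI called 0 of the 4. Except for mt-Nd6, the 4 are tRNA genes with few counts. The level of mt-Nd6, the complex I subunit of the minus strand, was 73.9, 65.9 and 60.1 CPM, at -1.13 (SE 0.26, adjusted p = 0.0088) beside -0.74 in SCI. The low mt-Te had 3, 0 and 5 counts with allogeneic MSC and 30, 12 and 12 in non-injured cord, at -2.29 (SE 0.70, adjusted p = 0.020). Its adjusted p was 0.080 without non-injured replicate 1 and 0.052 without allogeneic replicate 2, in a range of 0.0088 to 0.080 over the alternatives. Of the copied genes none was called; mt-Co2 held 1.56, 2.93 and 2.35 CPM, at -0.47 (SE 0.34, adjusted p = 0.34). The abundant mt-Co1 and mt-Cytb stood at -0.72 and -0.71 with adjusted p of 0.052 and 0.058, and mt-Co1 held 17367, 19043 and 18608 CPM.

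The count of 14 went to 6 without allogeneic replicate 3 (4.76% of all genes then called lower), to 8 without allogeneic replicate 2 (3.36%), to 9 without non-injured replicate 1 (4.36%) and to 8 without non-injured replicate 3 (8.61%). Without the last of these libraries the median of the members was -0.67 in place of -0.96. The values then were -0.48 for mt-Nd4 (adjusted p = 0.12), -0.45 for mt-Co1, -0.41 for mt-Cytb and -0.61 for mt-Tt (adjusted p = 0.13). The calls of mt-Rnr2, mt-Tl1, mt-Tw, mt-Nd6 and mt-Tp held in all 12 alternatives. Neuron markers summed to 8322 to 10051 CPM with allogeneic MSC (7 of 10 called lower against non-injured cord), and microglia and macrophage markers to 2586 to 3841 CPM (10 of 10 called higher). All 6 T cell markers were called higher in this group, with 27.9 to 59.2 CPM against 2.82 to 3.29 CPM in non-injured cord. Their part in the mitochondrial values was not tested.

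With syngeneic MSC, 1 of the 22 members was lower than in non-injured cord, the leucine tRNA mt-Tl1, where 0.424% of all genes were called lower. It held 2.53, 5.47 and 3.40 CPM, at -1.37 (SE 0.30, adjusted p = 0.022), and all 3 libraries lay below the non-injured ones. The median of the 22 was -0.52, against 0.031 over all genes, and 5 members (mt-Rnr2, mt-Tl1, mt-Ti, mt-Tw and mt-Tp) had all syngeneic libraries below all non-injured ones (7.18% of all genes). The level of mt-Nd1 was 6611, 11319 and 6261 CPM, at -0.54 (SE 0.24, adjusted p = 0.25), and mt-Co1 held 19861, 30433 and 18290.1 CPM, at -0.40 (SE 0.25, adjusted p = 0.40). Replicate 2 reached non-injured levels for both, and the other 2 replicates stood at SCI levels. Without replicate 2, 7 members were called lower, the share of all genes called lower was 2.27%, and the median of the members was -0.79. The value of mt-Nd1 then was -0.86 (adjusted p = 0.024) and that of mt-Co1 -0.67 (adjusted p = 0.11). Without non-injured replicate 3, 1 member was called, the median was -0.31 and mt-Co1 stood at -0.17. The call of mt-Tl1 was lost without non-injured replicate 1 or 2, without syngeneic replicate 1 or 3 (0 members called in each case), and when the 2 groups were fitted alone (adjusted p = 0.079, in a range of 0.00053 to 0.095 over the alternatives).

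Cell type markers in the syngeneic group also differed between replicates. Neuron markers summed to 12401 CPM in replicate 1, 13401 in replicate 2 and 10124 in replicate 3, and oligodendrocyte markers to 23485, 43399 and 26873 CPM. Microglia and macrophage markers summed to 1397, 1021 and 2794 CPM. Replicate 2, with the highest mitochondrial levels of the group, thus had the highest neuron and oligodendrocyte and the lowest microglia and macrophage sums. Astrocyte sums (10308, 9047 and 12785 CPM) were also lowest in replicate 2. Fibroblast sums (189, 232 and 1002 CPM), like those of neutrophils, T cells and ependyma, were lowest in replicate 1. The neuron sum of replicate 1 lay above the SCI range of 8068 to 9917 CPM, while its mitochondrial share lay within the range of SCI. Against non-injured cord 0 of 10 neuron and 0 of 9 oligodendrocyte markers were called, and all 10 microglia and macrophage markers were called higher. Their part in the mitochondrial values was not tested.

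Against SCI alone, no member was called with either transplant. With syngeneic MSC 0 of 22 were called and 0 had an unadjusted p below 0.05 in edgeR, and DESeq2 also called 0; over all genes 0.0363% were called in either direction. The median was 0.25, with 18 of the 22 values above 0, and all libraries lay above those of SCI only for mt-Atp8 and mt-Atp6, against 12.2% of all genes. For mt-Nd1 the log2 difference was 0.36, with a 95% interval of -0.16 to 0.88, for mt-Co1 0.24 (-0.29 to 0.78) and for mt-Rnr2 -0.050 (-0.66 to 0.56). Without syngeneic replicate 2 mt-Nd1 stood at 0.036 and mt-Co1 at -0.016, the median was -0.013 and 13 of the 22 values were below 0.

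With allogeneic MSC against SCI 0 members were called by edgeR or DESeq2, where 0.188% of all genes were called, and 1 had an unadjusted p below 0.05. This was mt-Te, at -2.15 (95% interval -3.70 to -0.60, adjusted p = 0.78). The median was -0.10, and the interval of mt-Nd1 ran from -0.54 to 0.50 around -0.021. Between the 2 transplants 0 members were called by either tool (0.611% of all genes), and 3 had an unadjusted p below 0.05 (mt-Tq, mt-Nd6 and mt-Te), all lower with allogeneic MSC. The median of allogeneic against syngeneic was -0.36, and without syngeneic replicate 2 it was -0.059. For mt-Nd2 the difference was -0.44, with an interval of -0.98 to 0.089. The lack of calls does not show that levels were equal. Each 95% interval gives the range of differences compatible with these libraries for that gene, not a limit of detection.

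Nuclear genes for the same complexes fell with injury. Of 71 nuclear subunits of complexes I, III, IV and V, 61 were called lower after injury alone and 0 higher, against non-injured cord. Their median was -0.68, beside -0.85 for the 22 mitochondrial members, which include rRNA and tRNA genes. The 12 protein members alone had a median of -0.81, with 4 called lower. Among these 12, the 5 inside the copied stretch, with few counts, had a median of -1.12. For complex I the medians were -0.68 (36 nuclear genes) and -0.72 (6 mitochondrial genes). Of all genes 9.26% were called lower. Leaving out non-injured replicate 3 gave 37 of 71 (median -0.52, 7.84% of all genes). Leaving out SCI replicate 2 gave 19 (2.75%), and leaving out SCI replicate 3 gave 23 (3.68%). In complex I, 29 of 36 fell, among them Ndufb2 (-0.68, SE 0.087, adjusted p = 0.00037) and Ndufa10 (-0.55, SE 0.099, adjusted p = 0.0025). All 9 subunits of complex III fell, with Cyc1 (cytochrome c1) at -0.56 and Uqcrb at -0.73. All 11 of complex IV fell, with Cox7a2 at -0.95 and Cox7b at -0.90, and 12 of 15 of complex V, with Atp5k at -1.12 and Atp5g1, a subunit of the rotor ring, at -0.61. In complex II, which holds no mitochondrially encoded subunit, 2 of 4 fell, Sdhd at -0.37 and Sdhb at -0.43 (median -0.33). Assembly factors fell in 13 of 40 cases (median -0.39), with Ndufaf2 at -1.04, and general mitochondrial genes in 9 of 18 (median -0.32), with the ADP/ATP carrier Slc25a4 at -0.56.

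Among the genes that make and mature mitochondrial RNA, smaller shares were called. Of 10 transcription genes 2 fell (median -0.20): Tfam, which packages the genome and opens its promoters, at -0.31 (SE 0.081, adjusted p = 0.017), and Mterf2 at -0.52 (SE 0.13, adjusted p = 0.015). The polymerase Polrmt had -0.17 (adjusted p = 0.26) and Tfb2m -0.033 (adjusted p = 0.86). Of 18 genes of RNA processing and stability 4 fell (median -0.26), including Elac2, which cuts the 3′ ends of tRNAs out of the precursor, at -0.35 (SE 0.090, adjusted p = 0.016) and Slirp, which with Lrpprc stabilises mitochondrial messenger RNAs, at -0.77 (SE 0.23, adjusted p = 0.031). Lrpprc itself had -0.19 (adjusted p = 0.36). Of 17 mitochondrial aminoacyl-tRNA synthetases 1 fell (Yars2, at -0.65), and of 12 genes for maintenance of the mitochondrial genome 1 fell (Tfam, median -0.018), both shares below the 9.26% of all genes called lower. Mitochondrial ribosomal proteins fell in 36 of 77 cases (median -0.39). Of 12 biogenesis regulators 3 fell, including Esrra (-0.44), and 2 rose, including Gabpa (0.54), the latter a share close to the 16.6% of all genes called higher, while the coactivator Ppargc1a had -0.012 (adjusted p = 0.98).

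The same nuclear subunits of complexes I, III, IV and V were lower in 38 of 71 cases with allogeneic MSC against non-injured cord (median -0.54) and in 1 of 71 with syngeneic MSC (Ndufb2, median -0.33). The mitochondrial members had 14 of 22 and 1 of 22 in these comparisons, rRNA and tRNA genes included, and all genes 8.17% and 0.424%. Of the protein members alone, 5 of 12 were called lower with allogeneic MSC and 0 of 12 with syngeneic MSC. With allogeneic MSC the nuclear count was 5 without allogeneic replicate 2 (3.36% of all genes called lower) and 17 without allogeneic replicate 1 (9.57%). It was 12 without non-injured replicate 3 (median -0.38, 8.61% of all genes) and 23 without non-injured replicate 1 (4.36%). With syngeneic MSC it was 13 without syngeneic replicate 2 (median -0.54, 2.27% of all genes). It was 0 without syngeneic replicate 1 (0.0657%) or 3 (0.0474%), or non-injured replicate 1 (0.102%) or 2 (0.196%). Against SCI alone, 0 of the 71 were called with syngeneic MSC by edgeR or DESeq2, and the median was 0.34, or 0.16 without syngeneic replicate 2. Among the 30 nuclear genes looked up by name, 10 share exon bases with a gene on the other strand in the annotation, Ndufb2, Elac2, Slirp, Esrra and Gabpa among them. With a gene on the same strand 3 share exon bases, Ndufb2 and Esrra among them. The values of all these genes are uncertain to that extent.

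**Figure D5:**
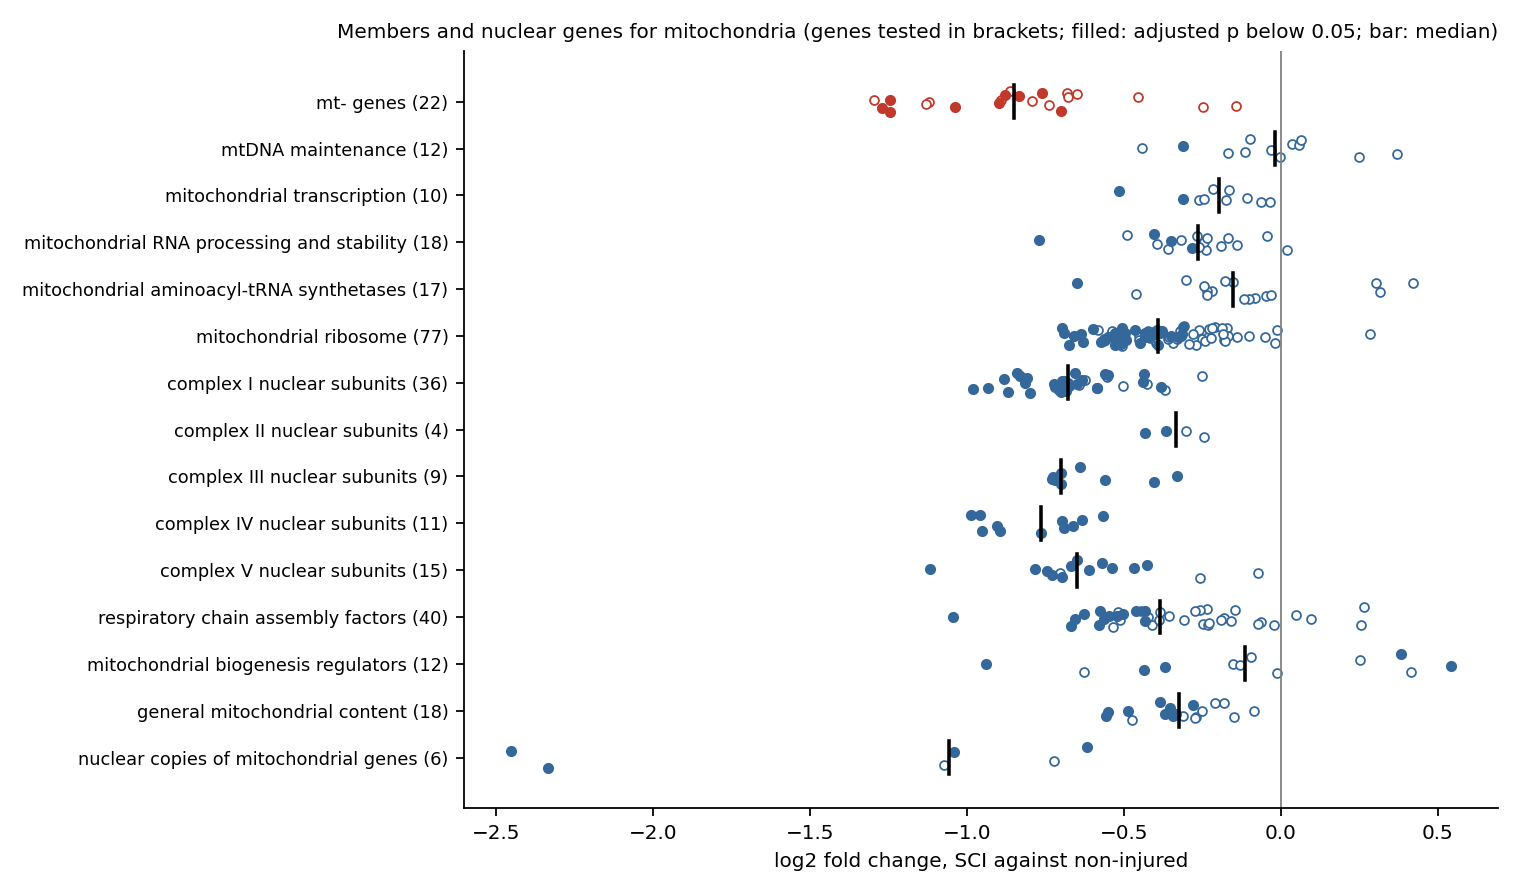
Log2 fold change in SCI against non-injured cord of the 22 mitochondrial members (top) and of nuclear genes in 14 lists, each point a gene, filled where adjusted p was below 0.05, with a bar at the median. The medians of the nuclear subunits of complexes I, III, IV and V lie between -0.77 and -0.65. The median is -0.85 for the 22 members, which include rRNA and tRNA genes, and -0.81 for the 12 protein genes among them. The medians of genome maintenance and transcription lie between -0.20 and -0.018.

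The 7 nuclear copies on chromosome 1 had 2 to 1046 counts in a library. Of 6 copies tested 4 fell in SCI against non-injured cord, where 9.26% of all genes were called lower. These were Gm28437 (copy of mt-Co3, log2 fold change -2.45, SE 0.79, edgeR adjusted p = 0.043) and Gm28438 (of mt-Nd3, -2.34, SE 0.55, adjusted p = 0.0067). The others were Gm10925 (of mt-Atp6, -1.04, SE 0.28, adjusted p = 0.018) and Gm28439 (of mt-Nd4, -0.62, SE 0.21, adjusted p = 0.046). Against non-injured cord 0 of 6 were called with allogeneic MSC (8.17% of all genes lower) and 0 of 6 with syngeneic MSC (0.424%). The copy Gm28438 had 20, 11 and 24 counts in non-injured cord and 3, 4 and 2 in SCI, while mt-Nd3, which differs from it at the base shown in capitals, had 124 to 465 counts over the 12 libraries. Whether these counts stem from the mitochondrial or the nuclear sequence was not tested.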

How the data were processed

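Libraries were made from mouse spinal cord RNA of 12 samples by poly(A) selection with a strand-preserving kit, per the labels' protocols. The authors deposited raw read counts per Ensembl gene. Of tools, the submitters' processing notes list featureCounts 1.5.1, STAR 2.5.1, StringTie 1.3.3, Picard, Trim Galore 0.4.1 and FastQC 0.11.5, and as build GRCm38, without roles or order. The sources used here do not state how strand, or reads with several matches, were handled.

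The filter was filterByExpr of edgeR with a minimum count of 10 and a minimum total of 15, and 16527 genes passed. Scaling was by TMM. The main test was edgeR 4.0.16 (R 4.3.3) with glmQLFit and glmQLFTest over all 12 libraries, fitting 1 mean for each group with 8 residual degrees of freedom. Benjamini-Hochberg adjustment ran over all genes tested, with a threshold of 0.05, and "fell", "rose" and "called" refer to it. The script was tested on simulated data. CPM values use TMM-scaled totals. Copies were found with blastn 2.17.0 among GENCODE M21 transcripts (at least 100 bases at 90% identity). Sequences and positions are from GENCODE M21 on GRCm38.

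Alternatives were DESeq2 1.42.0, limma-voom (limma 3.58.1), library totals as scaling, scaling without mitochondrial genes, no filter, fits of 2 groups, and leaving out each replicate. At most 328 of 16341 genes had equal counts in any 2 libraries, so none was treated as a repeat deposit. The members, the 14 pathway lists and the 12 marker lists were chosen with earlier results of these data known. From each pathway list at most the 2 called genes with the smallest adjusted p in SCI against non-injured cord were named, plus Polrmt, Tfam, Tfb2m, Lrpprc, Slirp, Ppargc1a and the copies.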

Additional observations from a re-analysis of the deposited data

How the results depend on the processing

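No member was called higher in any of the 6 comparisons under any alternative. For SCI against non-injured cord 9 members were called lower, with 9.26% of all genes. Leaving out each replicate in turn gave 2 to 11 members (2.75% to 7.84% of all genes). DESeq2 gave 14 (6.63%), and the other settings gave 7 to 10 (5.22% to 10.1%). In each comparison, DESeq2 and the setting without a filter covered 28448 genes and counted all members with counts, not only the 22. With allogeneic MSC against non-injured cord (14, with 8.17% of all genes), leaving out a replicate gave 6 to 17 (3.36% to 9.57% of all genes). With syngeneic MSC (1, with 0.424%), library totals (0.472%), no filter (0.267%) and limma-voom (0.411%) gave 2 each. DESeq2 gave 4 (0.654%) and the fit of 2 groups gave 0 (0.0246%). Leaving out a replicate there gave 0 to 7 (0.0474% to 2.27%). The cause was not tested. The mitochondrial share with allogeneic MSC was 4.96% with protein genes alone, by construction, and leaving out a replicate moved the share between 7.82% and 9.54% in non-injured cord, 5.43% and 6.13% in SCI, 5.52% and 7.21% with syngeneic MSC and 5.26% and 5.50% with allogeneic MSC. Over the 22 members tested, signs turned in uncalled log2 fold changes alone. With all libraries kept this concerned mt-Co3 in allogeneic against syngeneic MSC, at 0.0013, with -0.0037 when scaled without mitochondrial genes, -0.021 without a filter and -0.0042 in DESeq2. Leaving out a replicate turned 13 members in syngeneic MSC against SCI, 8 in allogeneic MSC against SCI, 4 between the transplants, 3 in syngeneic MSC and 1 in SCI against non-injured cord, those described by value being the following. In SCI against non-injured cord mt-Te ranged from -0.61 to 0.19. In syngeneic MSC against SCI, mt-Rnr2 ranged from -0.41 to 0.23, mt-Co1 from -0.016 to 0.35 and mt-Cytb from -0.00039 to 0.37. In allogeneic MSC against SCI, mt-Nd1 ranged from -0.11 to 0.040, mt-Co1 from -0.17 to 0.0077 and mt-Cytb from -0.13 to 0.060. In allogeneic against syngeneic MSC, mt-Rnr2 ranged from -0.50 to 0.0087. No paired analysis was possible because the labels state no pairing of samples between groups. The tRNA genes and the copied protein genes rest on few counts, and 15 members could not be tested. The nuclear subunits were refitted under the same alternatives, chosen after seeing the data. Besides the single libraries given above, fitting 2 groups alone gave 18 in place of 38 called lower with allogeneic MSC (3.95% of all genes). With syngeneic MSC that setting (0.0246% of all genes) and no filter (0.267%) gave 0 in place of 1. P-values rest on 3 samples a group, and counting intervals cover counting error only.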

Other observations

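The copy of mt-Co1 on chromosome 1, Gm29216, had 1046 counts in syngeneic replicate 2, the library with the largest mitochondrial share among the injured ones, and 33 to 116 counts in the other 11 libraries. It was chosen after its values were seen. Its log2 fold change against SCI was 2.88 (SE 0.87, edgeR adjusted p = 0.31). The copy of mt-Co3, Gm28437, had 449, 224 and 101 counts in non-injured cord, 31, 31 and 54 in SCI, 223, 389 and 20 with syngeneic MSC and 138, 18 and 52 with allogeneic MSC, a spread within groups that mt-Co3 itself, with 15 to 79 counts over all libraries, did not show.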
